A study of Homo sapiens with 4 samples.

Results

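Cytosolic ribosomal protein genes encode the protein parts of the ribosome, the RNA-protein machine that translates mRNA. In the human ovarian carcinoma cell line SKOV3 they were described as all genes whose platform symbol is RPL, RPS or RPLP followed by digits and, optionally, endings made of the letters A, L, X or Y, without pseudogenes and S6 kinases. Of 19775 genes with a probe set that carries exactly 1 symbol, 57 were members, 34 of the large subunit, 2 of its stalk and 21 of the small subunit. Each was read from its brightest such probe set, by the mean over the 4 arrays. Members whose probe sets all carry several symbols, such as RPL5, RPL10 and RPL13A, and those with no probe set named here, such as RPLP0 and RPS27A, were not analysed as genes.

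The 2 control arrays hold total RNA of SKOV3 cells without rhSTIP1, and the 2 rhSTIP1 arrays hold total RNA of SKOV3 cells that received it. The label was read as recombinant human STIP1, a cochaperone of HSP70 and HSP90 that cells also secrete. The sources used here give neither dose nor duration. The labels leave unsaid whether replicate arrays stem from separate cultures, and p-values therefore cover the spread between these samples alone, possibly a technical one. SKOV3 is a single line, and the arrays measure transcripts, not ribosomes. Of 12 fixed epithelial and ovarian carcinoma markers, 11 had a mean signal over the level at which genes were tested, with ERBB2 at 12169, and MUC16 stood at 8.98. Among those 11, WT1 at 86.0 and MSLN at 244 were dim. The highest mean signal of 3 usable leukocyte markers was 50.8, of 4 endothelial markers 141 and of 5 fibroblast markers 208. Over the test level stood 0 of these leukocyte markers, 1 of the endothelial and 3 of the fibroblast markers. The median signal over all probe sets was 66.0 and 79.2 on the controls and 69.0 on both rhSTIP1 arrays. The signal at the 3′ end of a transcript over that at the 5′ end is a measure of RNA degradation. For ACTB it was 2.74 and 2.45 on the controls, 2.62 on rhSTIP1 array 1 and 8.79 on rhSTIP1 array 2. For GAPDH it was 0.99 and 1.16 on the controls, 0.99 on rhSTIP1 array 1 and 1.32 on rhSTIP1 array 2. The part of RNA degradation in the values below was not tested.

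As background, the proteins of both subunits are made in near-equal numbers, and their mRNAs are among the most abundant of a growing cell. Nearly all of these mRNAs start with a 5′ terminal oligopyrimidine (TOP) tract, a C followed by further C and T letters, through which mTORC1 signalling and the binding protein LARP1 control their translation together. Changes in that control act on ribosome loading, which an array of total RNA does not measure. The signature was visible in the reference sequence of the members. The windows below, from RefSeq on GRCh38.p14, run from 15 bases before to 15 bases from the annotated start, 5′ to 3′ on the transcript strand. Capitals mark a run of at least 5 C or T letters that begins with C at the first base. The first 5 carry it, and the last 4 do not and belong to members whose values are described below.
RPS23, chr5:82278340-82278369, minus strand: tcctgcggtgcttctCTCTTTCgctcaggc
RPL24, chr3:101686704-101686733, minus strand: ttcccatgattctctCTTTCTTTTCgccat
RPS6, chr9:19380222-19380251, minus strand: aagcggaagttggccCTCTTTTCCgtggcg
RPS27, chr1:153990747-153990776, plus strand: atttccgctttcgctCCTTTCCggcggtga
RPL39, chrX:119791616-119791645, minus strand: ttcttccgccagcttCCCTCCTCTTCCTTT
RPS7, chr2:3575245-3575274, plus strand: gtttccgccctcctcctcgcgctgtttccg
RPL36AL, chr14:49620612-49620641, minus strand: ctgtttcttccctttcctgttaggcgagag
RPS27L, chr15:63157463-63157492, minus strand: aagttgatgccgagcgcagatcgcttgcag
RPL10L, chr14:46651767-46651796, minus strand: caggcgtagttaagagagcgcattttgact

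Of the 57 members, 49 were found in the promoter table by symbol, and 34 of them (69.4%) had such a tract at an annotated start. The same was true of 1404 of 27305 genes in the table (5.14%) and of 6 of 69 mitochondrial ribosomal protein genes (8.70%). The letters CGGAAG, a core of ETS factor motifs, occurred on either strand in the 250 bases before a start of 32 of the 49 members (65.3%), against 19.4% of all genes in the table. They were not particular to the members. The same letters occurred in 36 of the 69 mitochondrial ribosomal protein genes (52.2%). They also occurred in 6 of 14 genes for translation factors and other products of TOP mRNAs (42.9%). A match is a description of the letters at annotated starts, which can lie a few bases from the start a cell uses.

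Ribosomal protein transcripts were slightly higher with rhSTIP1 than in the controls, by about 1.08-fold. Of 56 members tested, 52 had a log2 fold change above 0 and 4 below, where 53.2% of all 12296 genes tested were above 0. The median log2 fold change was 0.12, with quartiles of 0.08 and 0.14, beside a median of 0.02 and quartiles of −0.17 and 0.18 over all genes. With quantile normalization the median was 0.04, beside 0.03 over all genes, as described further on. In 37 members (66.1%) both rhSTIP1 arrays lay above both controls, and in 0 members did both lie below. Over all genes tested, 14.0% were separated upwards in this way and 14.9% downwards. The remaining member, RPL3L, the muscle paralog of RPL3, did not reach the signal needed for a test, with signals of 4.08 and 24.3 on the control arrays and of 5.49 and 27.3 on the treated arrays.

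No member passed limma's test. At an adjusted p of 0.05, 0 of 56 members and 0 of 12296 genes (background 0%) passed, and the smallest adjusted p of a member was 0.999. At an unadjusted p under 0.05 there were also 0 members, against 1.04% of all genes higher and 2.64% lower. The standard errors of the members ran from 0.12 to 0.80 with a median of 0.14, and the difference was smaller than 1 standard error in 41 of the 56. The smallest two-sided p that an exact permutation test of 1 gene can give with 2 arrays a group is 0.333.

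The difference between groups was close in size to the gaps between arrays of 1 group. The absolute difference between the controls had a median of 0.09 over the members and that between the rhSTIP1 arrays a median of 0.05, both in log2 units. In 27 of the 56 members the group difference was larger than both gaps. Set against the mean of the controls, the median member stood at −0.02 on control array 1, 0.02 on control array 2, 0.13 on rhSTIP1 array 1 and 0.09 on rhSTIP1 array 2. The array with the high ACTB ratio was thus the lower of the rhSTIP1 arrays for the median member.

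**Figure D1:**
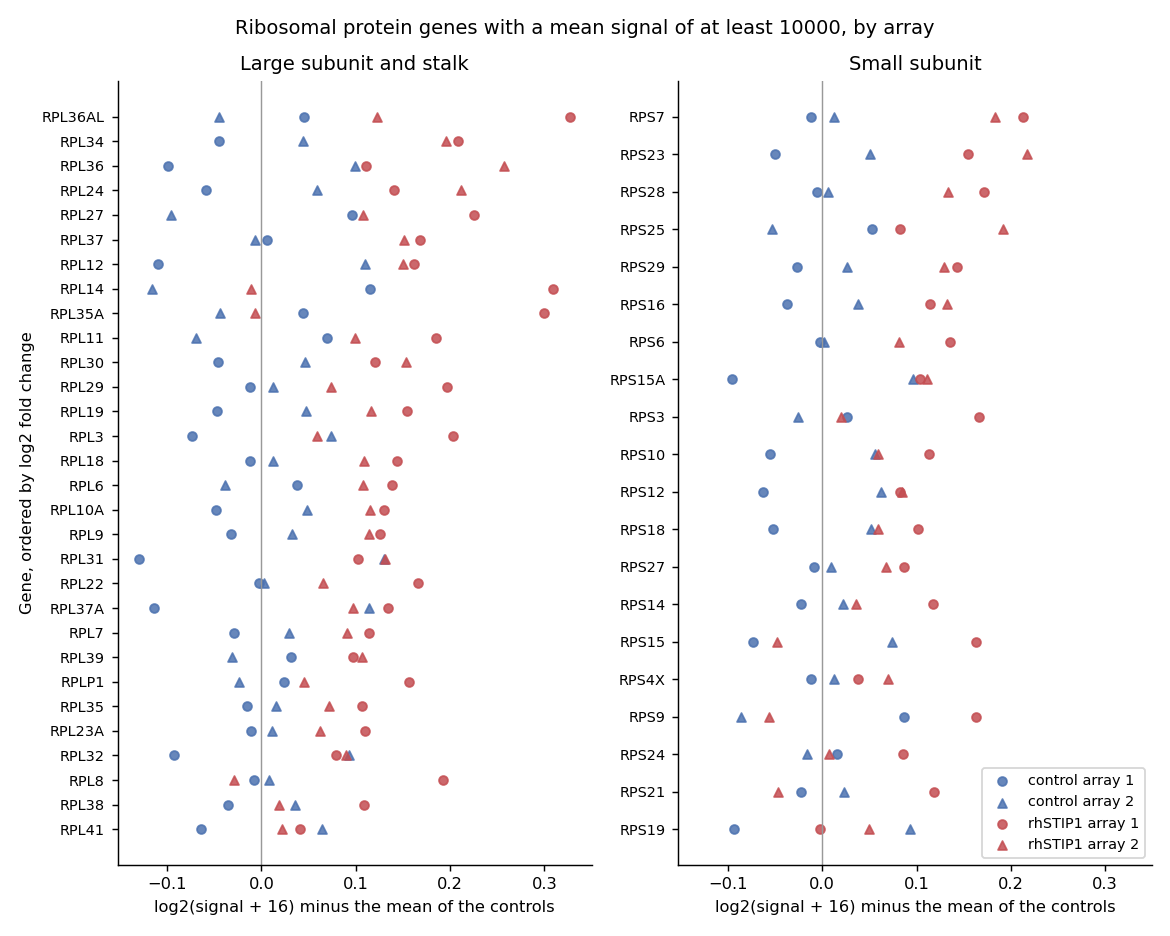
Each row is a ribosomal protein gene with a mean signal of at least 10000, and each point is its log2(signal + 16) on 1 array minus the mean of the 2 controls (blue, controls; red, rhSTIP1; circles, array 1; triangles, array 2). Fold changes lie between 0.02 (RPS19) and 0.23 (RPL36AL), and in 35 of the 50 genes both red points lie to the right of both blue points.

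Among small-subunit members, which bind the mRNA and decode it, all 21 had a fold change above 0, with a median of 0.09, and 15 were separated upwards. RPS23, a protein of the decoding centre, had signals of 40206 and 43130 on the control arrays and of 46351 and 48390 on the treated arrays. Both treated arrays were the higher, by 1.14-fold, a log2 fold change of 0.19 ± 0.13 (standard error of the model, here and below), with an unadjusted p of 0.18. RPS7, a protein that can also bind MDM2, had 27635 and 28110 without rhSTIP1 and 32305 and 31646 with it, 0.20 ± 0.13. Its controls were nearly equal, 0.02 apart in log2 units, and the treated arrays were 0.03 apart. RPS6, the substrate of the S6 kinases, had 30482 and 30571 against 33522 and 32288, so that the groups did not overlap, and a log2 fold change of 0.11 ± 0.13. A further bright probe set of RPS6 had 24889 and 29412 against 30139 and 27245, 0.08 with overlap. Another had 0.14 without overlap.

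Some small-subunit members differed less. RPS14, which is lost in the 5q− form of myelodysplasia, had 33316 and 34373 without rhSTIP1 and 36717 and 34702 with it, 0.08 ± 0.13. RPS3, which lines the mRNA entry channel, had 29074 and 28053 against 32055 and 28958, and its groups overlapped because control array 1 lay above rhSTIP1 array 2. RPS19, the gene most often mutated in Diamond-Blackfan anaemia, had 35287 and 40175 against 37597 and 38977. Both of its treated arrays lay between the controls, and its log2 fold change of 0.02 ± 0.14 was the smallest of the bright members and turned to −0.07 without control array 1. A further bright probe set of RPS19 had 32237 and 31796 against 34170 and 34278, a log2 fold change of 0.10 without overlap. RPS4X, the X-linked member, had 38185 and 38849 without rhSTIP1 and 39537 and 40431 with it, 0.05 ± 0.13 without overlap. A further bright probe set of RPS4X had 0.15, also without overlap. The other members whose arrays overlapped were RPS9, RPS15, RPS21 and RPS24. A further bright probe set of RPS9 had −0.01, also with overlap.

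Among large-subunit members, which form the peptide bond and hold the exit tunnel, 30 of 33 tested had a fold change above 0, with a median of 0.12, and 21 were separated upwards. RPL34 had signals of 25051 and 26646 on the control arrays and of 29854 and 29590 on the treated arrays, 0.20 ± 0.14 with an unadjusted p of 0.19. RPL24, which forms a bridge to the small subunit, had 32159 and 34889 against 36924 and 38785, 0.18 ± 0.13. RPL37 had 34553 and 34248 without rhSTIP1 and 38661 and 38195 with it, 0.16 ± 0.13. For these 3 genes every treated array was above every control, while the differences stayed under 2 standard errors, as they did for all 56 members.

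RPL11, which with RPL5 and 5S rRNA can bind MDM2 when ribosome assembly is disturbed, had 25628 and 23285 without rhSTIP1 and 27778 and 26164 with it, 0.14 ± 0.15. RPL3, a protein close to the peptidyl transferase centre, had 28588 and 31659 against 34627 and 31340, so that rhSTIP1 array 2 lay below control array 2, 0.13 ± 0.14. RPL39, which lines the exit tunnel, had 31990 and 30644 against 33500 and 33705, 0.10 ± 0.13 without overlap. Of 5 members at the exit tunnel and its rim (RPL19, RPL23A, RPL31, RPL35 and RPL39), 4 were separated upwards, with a median of 0.10. Of 4 members at the mRNA path and decoding centre (RPS3, RPS9, RPS15 and RPS23), only RPS23 was, with a median of 0.08. Of all 56 members tested, 66.1% were separated upwards, and of all genes tested 14.0%. The groups by position were formed after the values were seen, and the difference between them was not tested.

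The stalk, which recruits translation elongation factors, was represented by RPLP1 and RPLP2. RPLP1 had 32189 and 31140 without rhSTIP1 and 35285 and 32663 with it, 0.10 ± 0.14. The RPLP2 probe set with 1 symbol was dim and erratic, at 87.5 and 73.9 without rhSTIP1 and 8.03 and 137 with it, and its log2 fold change of −0.67 ± 0.80 was the lowest of all members. It turned to 0.67 without rhSTIP1 array 1 and stood at −2.00 without rhSTIP1 array 2. RPL27A (265 and 335 against 209 and 364, −0.10 ± 0.33) and RPL36A (165 and 117 against 144 and 129, −0.02 ± 0.34, and 0.03 with median centring or quantile normalization) were likewise read from dim probe sets with overlapping arrays. Both changed sign with 1 array left out, RPL27A to 0.27 without rhSTIP1 array 1 and RPL36A to 0.20 without control array 1. Probe sets that list these symbols beside others were not assigned to the 3 genes. Bright ones among them had log2 fold changes above 0. The probe set listing RPLP2 had a mean signal of 34100 and 0.06 with overlap. That listing RPL27A had 37584 and 0.12 without overlap, and that listing RPL36A had 30751 and 0.12 with overlap. The values below 0 of the 3 genes thus rest on dim probe sets alone.

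Paralogs of other members had log2 fold changes from −0.36 (RPL39L) to 0.57 (RPL10L). RPL39L, a paralog of RPL39 found mainly in male germ cells and some tumours, stood at 2708 and 1958 without rhSTIP1 and 2274 and 1400 with it. Its log2 fold change of −0.36 ± 0.31 was below 0 with overlapping arrays, and within each group array 2 was the lower. Without rhSTIP1 array 2 its log2 fold change was −0.02, and without rhSTIP1 array 1 it was −0.71. RPS27L, the paralog of RPS27 that p53 induces, had 6696 and 6453 without rhSTIP1 and 8051 and 7390 with it, 0.23 ± 0.19 without overlap. RPS27 itself had 33454 and 33885 against 35760 and 35280, 0.08 ± 0.13. RPL36AL, the autosomal paralog of the X-linked RPL36A, had 10413 and 9785 against 12669 and 10992, 0.23 ± 0.18. RPL10L, which replaces RPL10 during male meiosis, was dim at 53.0 and 126 without rhSTIP1 and 132 and 130 with it. Its log2 fold change of 0.57 ± 0.43 was the highest of all members and was 0.05 without control array 1.

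Members were also described by whether an annotated start held a TOP tract. The 34 with a tract had a median log2 fold change of 0.10, with 31 above 0, and 20 were separated upwards. The 15 without one, among them RPS7, RPL36AL, RPS27L and RPL10L shown above, had a median of 0.14, with 15 above 0, and 12 were separated upwards. Of all 56 members tested, 66.1% were separated upwards, and of all genes tested 14.0%. Because an annotated start can lie a few bases from the start a cell uses, the group without a tract can include TOP mRNAs. The difference between the groups was not tested.

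The members were among the brightest genes of the arrays, and the size of their difference was shared by other bright genes. Of the 56 tested, 50 had a mean signal of at least 10000, between 10965 (RPL36AL) and 44519 (RPS23), where the highest signal of any probe set was 44729 to 50984 across the arrays. Members made up 45 of the 100 brightest genes. The 410 other tested genes with a mean of at least 10000 had a median log2 fold change of 0.10, close to the 0.12 of the 50 bright members, against 0.01 for the 11830 other genes under that level. Leaving out rhSTIP1 array 1 gave these 410 genes a median of 0.04 and leaving out rhSTIP1 array 2 gave them 0.17, where the 56 tested members had 0.09 and 0.13. Of these 410 genes, 24.4% were separated upwards, against 35 of the 50 bright members. The quartiles were 0.08 and 0.14 for the bright members and 0.02 and 0.17 for these genes. Most members were far brighter than 10000, with a lower quartile of mean signals of 25017. Of 35 other genes at or above that quartile, 15 (42.9%) were separated upwards and 1 downwards, with a median log2 fold change of 0.08. The level of 10000 was chosen after the values were seen, and no test was made of these differences.

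**Figure D2:**
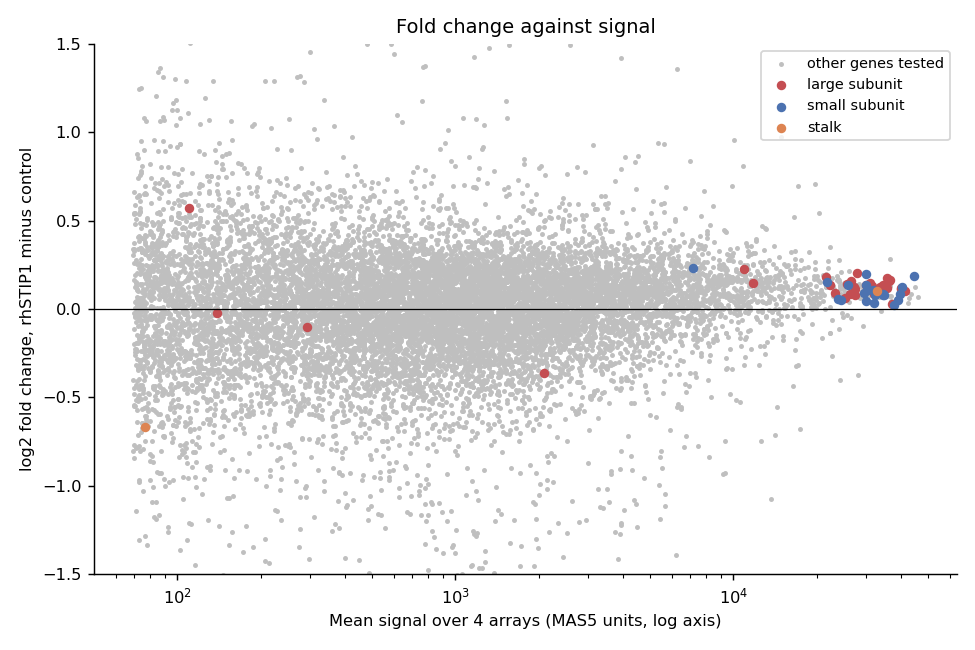
Each point is a gene, with its mean signal over the 4 arrays on a log axis and its log2 fold change on the vertical axis (red, large subunit; blue, small subunit; orange, stalk; grey, other genes tested). The 50 bright members form a narrow cloud above 0 at the right edge, and 58 other genes with changes beyond 1.5 are not drawn.

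Further probe sets of ribosomal protein genes gave a similar picture where they were bright. The 57 members had 118 probe sets with 1 symbol, and 61 of these were not the brightest of their gene. Of those 61, 20 had a mean signal of at least 10000, with a median log2 fold change of 0.13, and 16 were separated upwards. The other 41 had a median of 0.07, ran from −0.68 to 1.28, and were separated upwards in 7 cases and downwards in 4. A further 64 probe sets carried several symbols of which 1 fits the rule. Many of these list genes outside the 57 members, such as RPL5, RPL10 and RPL13A. The 47 bright ones among them had a median of 0.09, and 21 were separated upwards and 0 downwards. Names ending in _s_at or _x_at, by which Affymetrix marks probes that can match several transcripts, were held by 43 of the 57 chosen probe sets, and signal from pseudogenes or paralogs cannot be told apart from that of the named gene there.

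**Figure D3:**
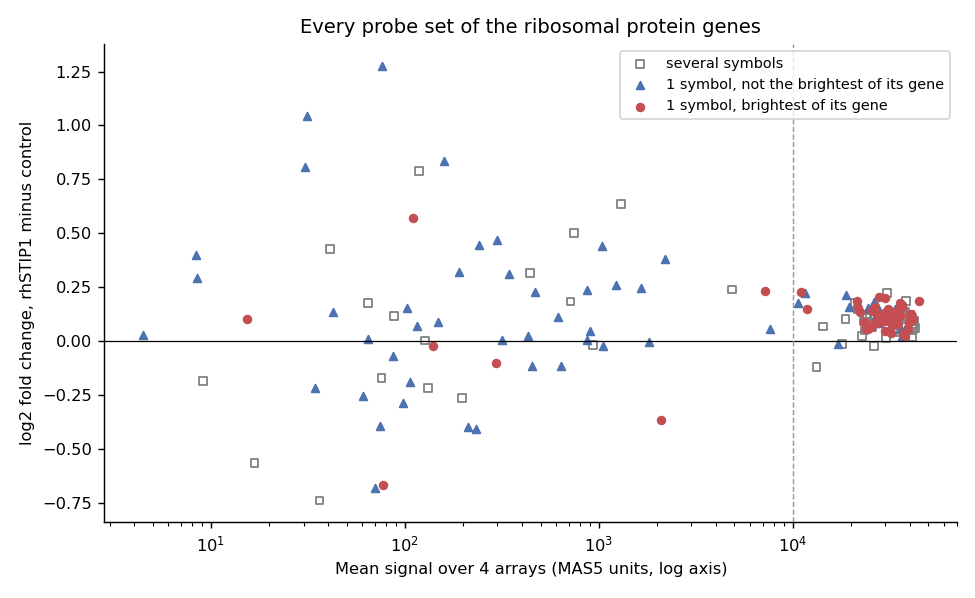
Each point is a probe set of a ribosomal protein gene, with its mean signal on a log axis and its log2 fold change (red circles, the probe set used for the gene; blue triangles, further probe sets with 1 symbol; open squares, probe sets with several symbols). To the right of the dashed line at 10000 the triangles and squares together have a median of 0.10 and run from −0.12 to 0.22, with 4 of 67 below 0. To its left values scatter more widely on both sides of 0.

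Genes that work with the ribosome were compared by lists. Of 18 usable genes for translation factors and other products of TOP mRNAs, 16 were tested, with a median log2 fold change of 0.13. Of these 16, 9 (56%) were separated upwards and 0 downwards, against 14.0% and 14.9% of all genes tested. With quantile normalization the list's median was 0.05, and 3 (18.8%) were separated upwards, against 15.2% of all genes. Without control array 1 the median was 0.08. The elongation factor EEF2 had 26690 and 28125 without rhSTIP1 and 29874 and 30147 with it, 0.13 ± 0.14, and the histone chaperone NAP1L1 had 0.15 ± 0.15. The nascent-chain factor BTF3 (0.16 ± 0.15, and 0.05 without rhSTIP1 array 1) and the initiation factor subunit EIF3F (0.16 ± 0.17, and 0.07 without control array 2) were also higher on both treated arrays. Of 23 tested genes for other initiation factors, 4 (17.4%) were separated upwards, against 14.0% of all genes tested. A fold change above 0 was found in 20, with a median of 0.10. That median was 0.03 without rhSTIP1 array 1 and 0.19 without rhSTIP1 array 2. EIF4H, which stimulates the helicase EIF4A, had the largest difference as deposited, with 9795 and 10997 without rhSTIP1 and 11857 and 15465 with it, 0.38 ± 0.20, and 0.29 with overlapping arrays after quantile normalization. It was 0.19 without rhSTIP1 array 2, where EIF3M at 0.39 was higher, and 0.57 without rhSTIP1 array 1. FAU, which encodes another protein of the small subunit, had 0.13 ± 0.14 without overlap.

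Both lists of genes that build cytosolic ribosomes had medians below 0 as deposited. Among 27 tested ribosome biogenesis genes, 2 (7.41%) were separated upwards and 4 (14.8%) downwards, against 14.0% and 14.9% of all genes tested. Their median was −0.01, with 13 above 0 and 14 below. The sign of this median turned with median centring (0.04), with quantile normalization (0.01), with the probe sets of each gene averaged (0.02) and when rhSTIP1 array 1 (0.08) or control array 2 (0.03) was left out. BYSL, which acts in small-subunit maturation, had 1196 and 1084 without rhSTIP1 and 642 and 938 with it, −0.54 ± 0.27, which was −0.28 without rhSTIP1 array 1 and −0.81 without rhSTIP1 array 2. Among 15 genes for RNA polymerase I and 5S rRNA transcription, 1 (6.67%) was separated upwards and 4 (26.7%) downwards. Their median was −0.17, with 12 below 0. This median was −0.06 when rhSTIP1 array 1 was left out and −0.00019 when control array 2 was, and −0.04 both with probe sets averaged per gene and without _x_at and _s_at probe sets. TAF1A, a subunit of the selectivity factor of RNA polymerase I, had 484 and 397 against 275 and 284, −0.62 ± 0.26, with an unadjusted p of 0.045 and an adjusted p of 0.999. The mitochondrial ribosome, built from a separate set of nuclear genes, had 2 of 75 genes separated upwards (2.67%) and 6 downwards (8%). Its median was 0.03, with 43 above 0 and 32 below. That median changed sign with the arrays used, from −0.12 without rhSTIP1 array 1 or control array 2 to 0.15 without control array 1 and 0.14 without rhSTIP1 array 2. MRPL44, a protein of its large subunit, had 937 and 885 without rhSTIP1 and 637 and 442 with it, −0.76 ± 0.27, which was −0.51 without rhSTIP1 array 2. In none of these lists did a gene pass over all genes tested (0 at an adjusted p of 0.05 in limma). The mean signals of these lists differ from those of the cytosolic ribosomal proteins, and the differences between lists were not tested.

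**Figure D4:**
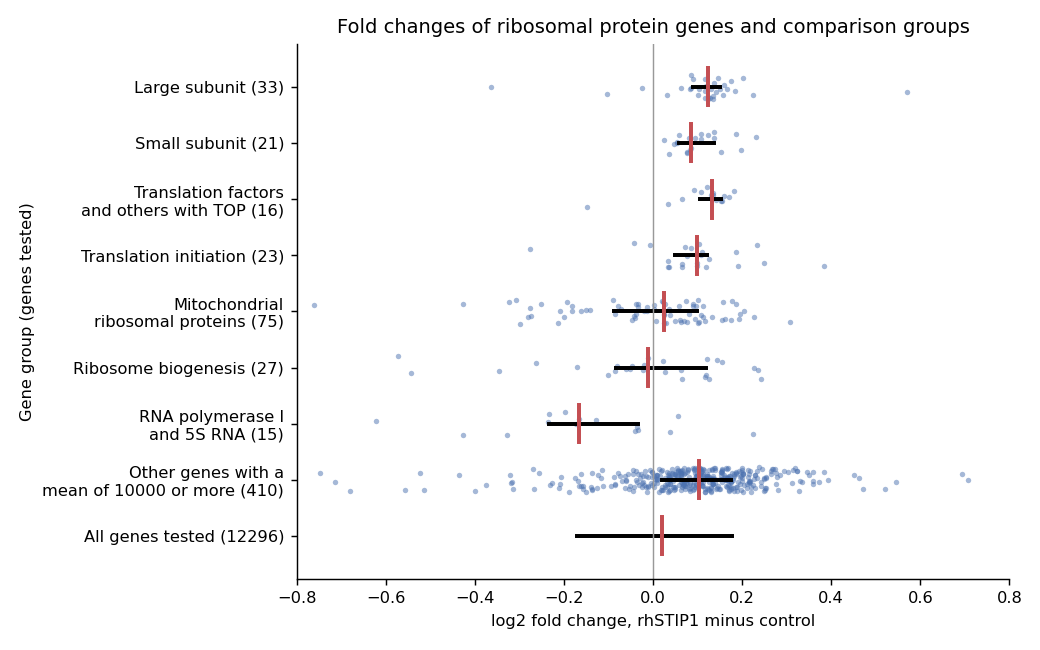
Log2 fold changes of the genes tested in each group, with the number of genes in brackets (points, single genes, not drawn for all genes tested; black bars, quartiles; red ticks, medians). Both subunits and the TOP list lie at medians of 0.09 to 0.13, other genes with a mean of at least 10000 at 0.10 (6 of them beyond 0.8 are not drawn), and mitochondrial ribosomal proteins at 0.03.

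The size of the difference depended on how the arrays were scaled. As deposited, the members' median lay 0.10 above that of all genes tested. With median centring it was 0.17 against 0.08 for all genes. With quantile normalization, which gives every array the same distribution of signals, it was 0.04 against 0.03, and 43 of 56 members were above 0. Under that setting 16 members were separated upwards, all of them among the 37 counted above, and 3 downwards. Over all genes tested, 15.2% were separated upwards there and 13.5% downwards. The 16 included RPS23 (0.12), RPS7 (0.12), RPL34, RPL37, RPL11, RPS6, RPL36AL, RPS27L and RPL10L, and the 3 were RPL41 (−0.06), RPS24 (−0.05) and RPS27 (−0.02). The fold changes of RPS14, RPS19 and RPS4X, above 0 as deposited, were also below 0 there. Bright genes other than members had a median of 0.02 with quantile normalization.

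**Figure D5:**
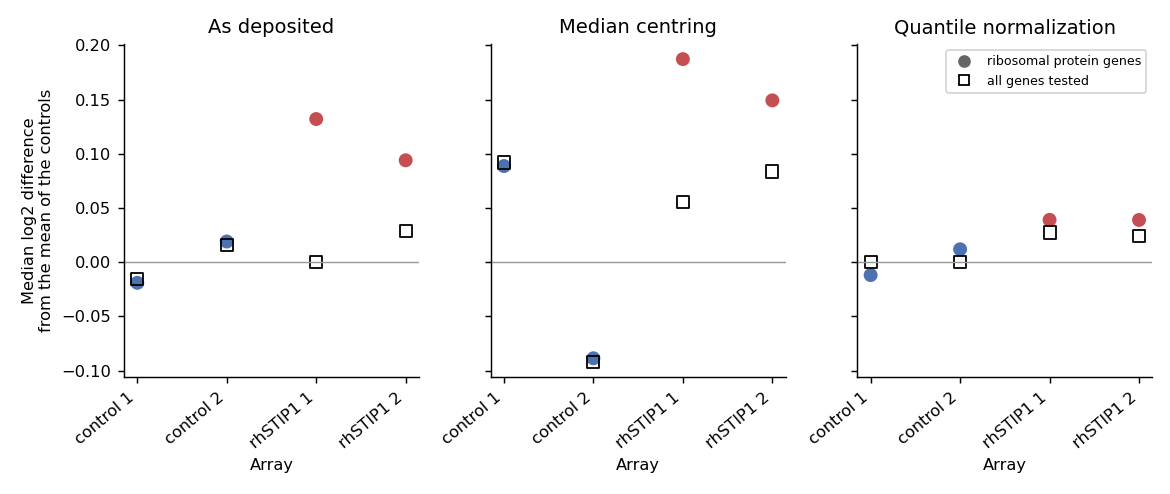
Median log2 difference from the mean of the controls on each array, for ribosomal protein genes (filled circles; blue, controls; red, rhSTIP1) and for all genes tested (open squares), under each of the 3 scalings. The circles on the rhSTIP1 arrays stand at 0.13 and 0.09 as deposited and at 0.04 on both arrays with quantile normalization, where they lie next to the squares.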

How the data were processed

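Total RNA of 4 SKOV3 samples was hybridised to 1-colour Affymetrix arrays. The authors deposited 1 linear intensity per probe set. The submitters' processing notes name MAS5 and Affymetrix Expression Console 1.1. MAS5 treats arrays singly and scales them to a common target. The mean after trimming 2% from each end was 500.1 on every array. No detection calls were used here.

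Of 54675 probe sets, 62 were controls, 41091 had 1 symbol, 1801 several and 11721 none. Each gene took its probe set with the highest mean. Genes were tested where that mean reached 69.4, the median over probe sets, which kept 12296 of 19775. In R 4.3.3, limma 3.58.1 (lmFit, then eBayes with the trend option) compared the groups on log2(signal + 16). Tests were two-sided and p-values were adjusted by Benjamini-Hochberg over all genes tested. The pseudocount understates changes of dim genes. Residual degrees of freedom were 2 per gene, with 5.56 more from moderation across genes. A member is called separated where the arrays of the groups do not overlap.

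The members and lists were chosen with earlier results of these data known. Named genes were the 8 members with the smallest p, the 4 lowest, stalk proteins, members known outside the ribosome, paralogs, and up to 4 genes a list with the smallest p. MTOR, TSC1, TSC2, RPL41 and others given with a range or a count were named after their values were seen. Steps were tested on simulated data. The number of arrays limits the precision.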

Additional observations from a re-analysis of the deposited data

How the results depend on the processing

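Scaling moved the members' median log2 fold change most, to 0.17 with median centring and 0.037 with quantile normalization, against 0.12. With 1 array left out it ran from 0.085 (without control array 1) to 0.13, and the lone array of a group was then assumed to vary like the other group. The count separated upwards, 37, was 16 with quantile normalization and 11 of 28 testable members without _x_at and _s_at probe sets, and ran from 40 to 48 with 1 array left out, where all genes reached 29.1% to 36.5%. The count separated downwards, 0, was 3 with quantile normalization, 1 with probe sets averaged per gene (RPS29), 1 without _x_at and _s_at probe sets (RPS14), and 2 to 3 with 1 array left out. Over all genes, the share separated downwards was 13.5% with quantile normalization and 17.2% with probe sets averaged per gene. It was 15.5% without _x_at and _s_at probe sets and 30.2% to 33.3% with 1 array left out. The shares separated upwards were 15.2% with quantile normalization and 13.6% without _x_at and _s_at probe sets. Genes called over all genes, 0, were 1 with a filter at the 70th percentile, 2 with robust eBayes, 0 to 6 with 1 array left out and 247 with the replicate number as a block, where 0 members passed and the smallest adjusted p of a member was 0.63. Of the genes named, DDIT4 (adjusted p = 2.2e-05) and SESN2 (0.0104) were called with the block and not without it. Deviations of same-numbered arrays correlated at 0.36, but there were only 2 pairs, and no label says whether same-numbered samples shared a batch. Between the arrays numbered 1, the members' median log2 difference was 0.16, with 52 of 56 above 0. Between the arrays numbered 2 it was 0.06, with 46 above 0. No setting called a member, and the other settings, with the pseudocount, no filter or eBayes without a trend, left these results within 1.5 times or 1 SD. Of alternatives chosen after seeing the data, members with a mean of at least 10000 had a median of 0.12 with 35 of 50 separated upwards. The 67 further bright probe sets, with 1 symbol or several, had 0.10 with 37.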

Other observations

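The paralogs with a number after the letter L, which lie outside the symbol rule, had small differences that varied with the arrays used. RPL26L1 had signals of 3802 and 4104 on the control arrays and of 5466 and 4310 on the treated arrays, a log2 fold change of 0.30 ± 0.22 without overlap, which was 0.13 without treated array 1 and 0.47 without treated array 2. RPL22L1, a paralog of RPL22, had 3495 and 3173 against 3381 and 2376, −0.23 ± 0.25 with overlapping arrays, and this turned to 0.02 without treated array 2. RPL7L1 had 0.11 ± 0.19, also with overlap, and −0.02 without control array 2.

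Among 17 tested genes of mTORC1 and S6 kinase signalling, which controls the translation of TOP mRNAs, the median log2 fold change was 0.02, with 10 above 0 and 7 below, and it turned to −0.09 without control array 1 and −0.01 without rhSTIP1 array 1. MTOR itself had −0.19 ± 0.24 and was lower on both treated arrays than on both controls. TSC1 (0.02 ± 0.26) and TSC2 (0.08 ± 0.39) had overlapping arrays. Of the 17 genes, 2 had an unadjusted p under 0.05 in limma, both lower, against 2.64% of all genes tested. Both encode inhibitors of mTORC1. DDIT4 had 14491 and 12260 on the control arrays and 5610 and 1986 on the treated arrays, a log2 fold change of −1.99 ± 0.43. It was −1.25 without treated array 2 and −2.74 without treated array 1. SESN2 had 874 and 1139 against 438 and 510, −1.05 ± 0.26. Each had an adjusted p of 0.702 over all genes in limma, and both passed 0.05 with the replicate number as a block. EIF4EBP1 (0.28 ± 0.25) and EIF4EBP2 (0.41 ± 0.38), which hold back cap-dependent translation, had overlapping arrays. EIF4EBP1 turned to −0.03 without treated array 1 and EIF4EBP2 to −0.09 without control array 1. No value here shows the activity of mTORC1 or the translation of any member.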
